A study of Homo sapiens with 6 samples.

Results

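Kinesins are motor proteins that use ATP to walk along microtubules or to take them apart. A set of them acts in dividing cells, where they build the spindle, move chromosomes and cut the daughter cells apart, and their messages peak around mitosis. Others carry vesicles, organelles and ciliary components in cells of any cycle phase, and are most varied in neurons. The kinesin family was read here in U251 cells, a human glioma line, on 6 Affymetrix arrays. The control group is 3 arrays of U251 cells that overexpress GFP, and the PARK2 group is 3 arrays of U251 cells that overexpress PARK2, the gene of the ubiquitin ligase parkin. Each line was infected with virus and selected in puromycin, and whether it is 1 clone or a pool is not stated in the labels. The labels call the arrays within a group biological replicates, without saying what was repeated. Separate cultures are not named for them, so the p-values reflect spread that could be technical.

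Members were taken by symbol, as all genes whose platform symbol starts with KIF followed by a digit or a C and whose probe set names no other gene. This found 45 symbols on 91 probe sets, out of 19775 genes with a probe set of their own. Of the 45, 41 are kinesin genes and 4 are antisense RNA genes named after a kinesin (KIF1C-AS1, KIF9-AS1, KIF23-AS1 and KIF25-AS1). By their known roles the 41 were sorted into 13 mitotic kinesins, 17 transport kinesins and 11 others. The others act mainly at cilia or have less settled roles, but they include KIF2A, which acts at spindle poles and in neurons. Each gene was read on its brightest probe set. Probe sets differ in how strongly they bind, so intensities are compared between arrays and not between genes.

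A filter on dim probe sets kept 33 of the 41 kinesin genes, 12 mitotic, 14 transport and 7 other. The 8 that fell under it were KIF2B, KIF1A, KIF17, KIF21B, KIF19, KIF24, KIF26A and KIF27, with group means of at most 12.3 intensity units. KIF1A and KIF21B, motors of neuronal axons and dendrites, averaged 7.20 and 4.66 in control cells and 3.05 and 1.48 in PARK2 cells. KIF2B, a relative of the spindle motor KIF2C, read 2.01, 0.54 and 5.90 in the controls (replicates in the order 1, 2, 3, here and below) against 12.1, 11.4 and 13.4 with PARK2. These groups do not overlap, but the levels lie around the floor of the filter, where the lowest gene kept had a mean of 9.96.

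In promoters of mitotic genes, a CCAAT box bound by NF-Y often lies a short way before a cell cycle genes homology region, a short motif through which the DREAM and MuvB complexes time expression to the cycle. Promoter windows of RefSeq (GRCh38.p14, from 250 bases before to 50 after a start site) were available for 33 of the 41 kinesin genes. They were searched on both strands for CCAAT and for the homology region as TTTGAA or TTTAAA, and no match in a kinesin window overlapped another. Of 13 mitotic kinesins 11 had TTTGAA or TTTAAA (84.6%), against 2 of 12 transport kinesins (16.7%) and 27.9% of all 27305 genes in the table. CCAAT was found in 10 of the 13 mitotic and 4 of the 12 transport kinesins (39.7% of all genes), and both motifs in 9 of 13 and 1 of 12 (11.2% of all genes). Of the 8 other kinesins with a window, 0 had TTTGAA or TTTAAA and 3 had CCAAT. A match describes these letters and does not show that a factor binds.

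The 100 bases before the start site are shown for 7 genes, with matches in capitals, because the first 5 are the mitotic kinesins that passed the test below, KIF11 is a mitotic motor that did not, and KIF3A is a transport kinesin without a match in this stretch. They lie at chr5:138179012-138179111 (KIF20A, plus strand), chr11:28108157-28108256 (KIF18A, minus), chr16:29790651-29790750 (KIF22, plus), chrX:70290004-70290103 (KIF4A, plus), chr15:69414249-69414348 (KIF23, plus), chr10:92593030-92593129 (KIF11, plus) and chr5:132737547-132737646 (KIF3A, minus).
KIF20A: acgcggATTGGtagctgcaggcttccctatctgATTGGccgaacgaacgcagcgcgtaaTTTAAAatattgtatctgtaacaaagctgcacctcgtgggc
KIF18A: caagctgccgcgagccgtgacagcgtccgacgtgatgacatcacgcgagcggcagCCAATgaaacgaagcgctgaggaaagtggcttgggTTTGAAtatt
KIF22: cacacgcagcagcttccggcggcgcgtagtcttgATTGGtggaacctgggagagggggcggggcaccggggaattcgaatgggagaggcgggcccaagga
KIF4A: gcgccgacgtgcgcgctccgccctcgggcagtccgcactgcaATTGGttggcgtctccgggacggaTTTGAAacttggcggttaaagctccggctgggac
KIF23: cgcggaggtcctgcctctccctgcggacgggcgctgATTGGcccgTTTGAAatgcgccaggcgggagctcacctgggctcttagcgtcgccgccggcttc
KIF11: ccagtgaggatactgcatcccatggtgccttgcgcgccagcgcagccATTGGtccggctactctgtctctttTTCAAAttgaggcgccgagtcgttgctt
KIF3A: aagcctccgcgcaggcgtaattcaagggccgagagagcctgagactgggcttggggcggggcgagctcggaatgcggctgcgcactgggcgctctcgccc

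In KIF20A, KIF18A, KIF4A, KIF23 and KIF11 the CCAAT match (ATTGG on the other strand) stands upstream of the homology region match. KIF23, which fell, carries the same pair of motifs as KIF18A and KIF4A, which rose.

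**Figure D1:**
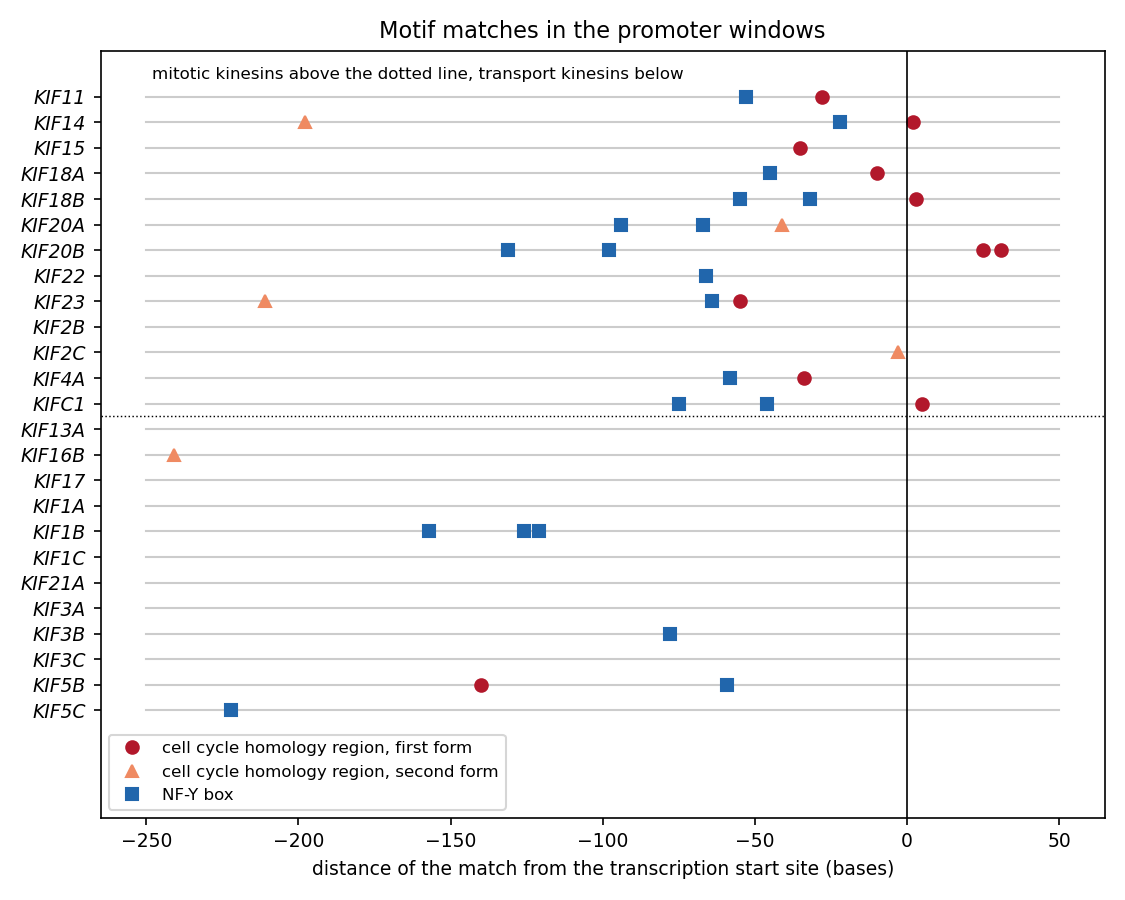
Motif matches in the promoter windows of 13 mitotic and 12 transport kinesins, by distance in bases from the start site (all windows of a gene on its line). Circles are TTTGAA, triangles TTTAAA and squares CCAAT (the NF-Y box), and matches gather near the start site in the mitotic kinesins, with KIF2B having none.

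Among the mitotic kinesins 4 of 12 tested rose in PARK2 cells and 1 fell. Over all 13720 genes tested, 13.3% were higher, 15.6% lower and 28.8% either. KIF20A, KIF18A, KIF22 and KIF4A were the 4 that rose and KIF23 the 1 that fell. The median log2 fold change of the 12 was 0.29, against -0.0026 for all genes tested. Log2 fold changes are differences of log2(intensity + 16), which understate the change of dim genes, and adjusted p-values come from limma over all genes tested.

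KIF20A (MKLP2), which brings the chromosomal passenger complex to the central spindle, had intensities of 923, 783 and 782 in control arrays against 1555, 1812 and 1508 in PARK2 arrays. The groups lay far apart, with a linear fold of 1.96. The log2 fold change was 0.96 (SE 0.14, adjusted p 6.45e-08). KIF18A, a motor that dampens the swinging of chromosomes at metaphase, read 214, 199 and 195 in control and 313, 344 and 354 in PARK2 arrays. Each PARK2 array was above each control array, and the log2 fold change was 0.69 (SE 0.16, adjusted p 0.000412). KIF22 (Kid), which binds chromosome arms and pushes them toward the equator, read 263, 215 and 188 in control and 346, 342 and 337 in PARK2 arrays. Its control arrays spread more widely than its PARK2 arrays but did not reach them (log2 fold change 0.60, SE 0.16, adjusted p 0.00256). The calls of these 3 genes held under all alternatives that gave them a value, including each array left out in turn. A second, dimmer KIF22 probe set stood at 0.25 and did not pass (adjusted p 0.454 over all probe sets, each taken as its own feature). KIF18A and KIF22 had no value without _x_at and _s_at probe sets.

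KIF4A, a chromokinesin that sets the length of the spindle midzone together with PRC1, read 1440, 1104 and 1122 in control and 1478, 1635 and 1530 in PARK2 arrays. Control replicate 1 came close to the lowest PARK2 array, and the call was marginal (log2 fold change 0.35, SE 0.14, adjusted p 0.0478). It was lost without control replicate 2 (adjusted p 0.276) or 3 (0.111) and without PARK2 replicate 1 (0.0863), 2 (0.235) or 3 (0.139), and under 11 of 18 alternatives in all. KIF4A has a near-identical copy, KIF4B, which its probe set may also read.

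KIF23 (MKLP1), which forms centralspindlin with RACGAP1, went down. It read 1244, 1050.5 and 1017 in control and 761, 821 and 898 in PARK2 arrays, and the groups did not overlap. The log2 fold change was -0.41 (SE 0.14, adjusted p 0.0225), and its other, dimmer probe set stood at -0.42 (adjusted p 0.091 over all probe sets, each taken as its own feature). The call was lost without control replicate 2 (adjusted p 0.0674), PARK2 replicate 1 (0.127) or PARK2 replicate 2 (0.104). It was also lost with no intensity trend (0.0718), without _x_at and _s_at probe sets (0.0629) and with the replicate block (0.0521). RACGAP1, chosen after its values were seen, rose (log2 fold change 0.49, adjusted p 0.00269). On the values as deposited the messages of the 2 centralspindlin subunits thus stood on opposite sides. With the correction for neighbouring genes described below both lay above 0 (KIF23 0.17, adjusted p 0.151, and RACGAP1 0.42, adjusted p 0.00186).

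The other 7 tested mitotic kinesins did not pass. KIF14, which acts in cytokinesis, was at 0.36 (95% confidence interval 0.04 to 0.67, adjusted p 0.0816). KIF2C (MCAK), which frees wrongly attached microtubules, stood at 0.29 (0.01 to 0.57, adjusted p 0.117), and KIF18B, a regulator of astral microtubules, at 0.29 (0.0087 to 0.56, adjusted p 0.120). KIFC1 (HSET), a minus-end motor that gathers spindle poles, was at 0.25 (-0.10 to 0.60). On the other side of 0, KIF11 (Eg5), the motor that drives spindle poles apart, was at -0.17 (-0.44 to 0.10), KIF15, which can stand in for it, at -0.23 (-0.55 to 0.09), and KIF20B, a cytokinesis motor, at -0.29 (-0.59 to 0.01). A second, dimmer KIF2C probe set passed in the test over all probe sets (0.50, adjusted p 0.0327). In KIF14, control replicate 1 at 1017 reached into the PARK2 arrays (897, 844 and 1028), while the other controls were at 547 and 657. It was at 0.17 without control replicate 2 (0.605). Without PARK2 replicate 1 a second KIF14 probe set became the brightest, and that one passed (0.62, adjusted p 0.00402). KIF2C (0.39, adjusted p 0.0181) and KIF18B (0.32, 0.0143) passed without control replicate 1, and KIF2C was at 0.21 without control replicate 3 (0.283).

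**Figure D2:**
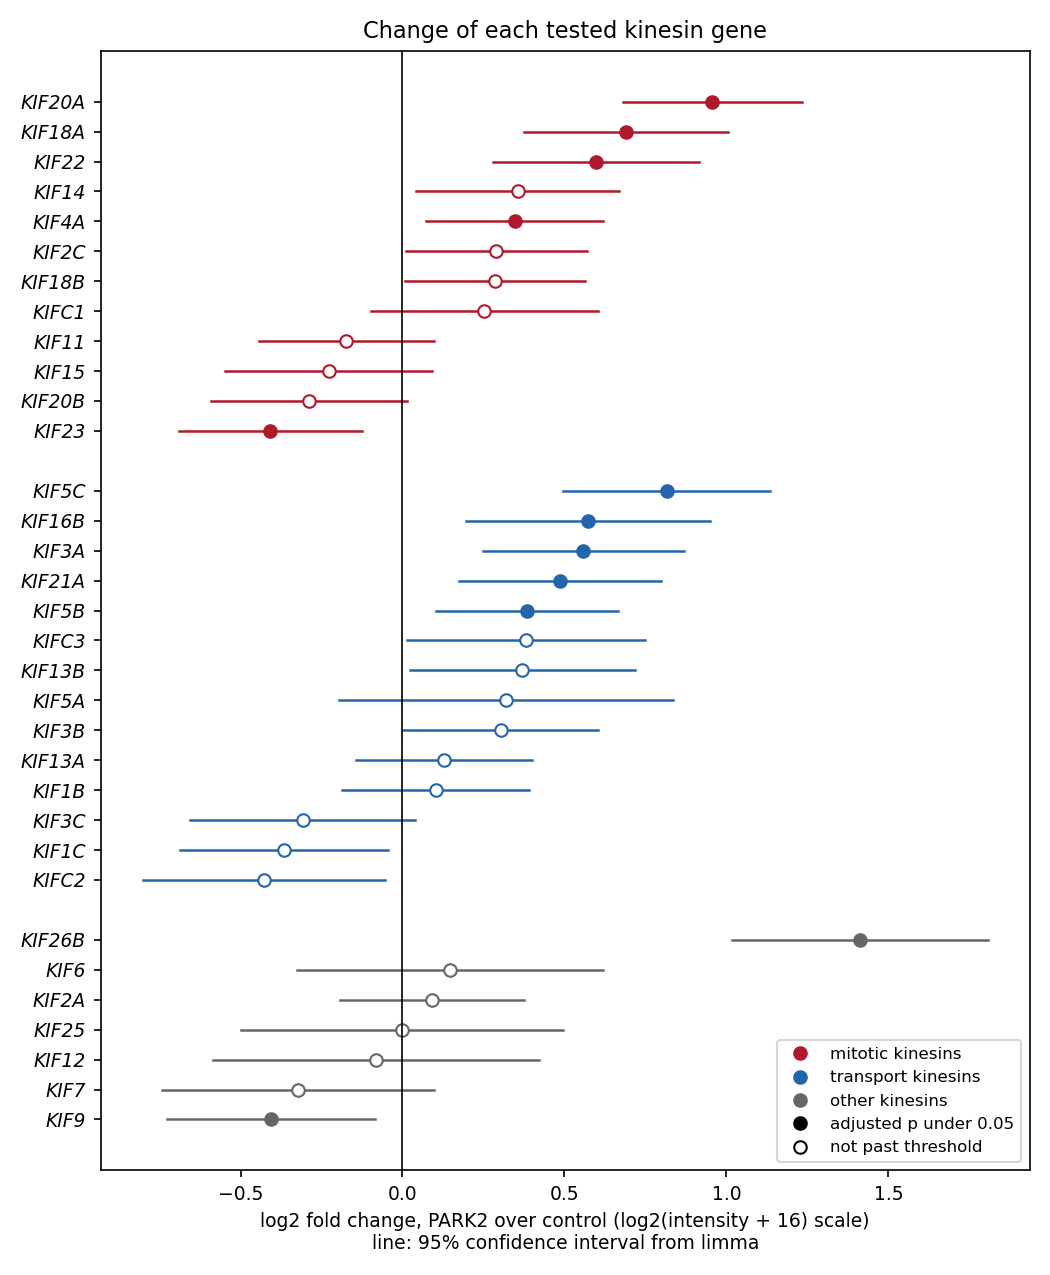
Log2 fold change (x axis, PARK2 over control) of the 33 tested kinesin genes in rows by class, with 95% confidence intervals from limma and filled points for adjusted p under 0.05. KIF26B (1.41), KIF20A (0.96) and KIF5C (0.82) are the highest points, and KIFC2 (-0.43), KIF23 (-0.41) and KIF9 (-0.41) the lowest.

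Among the transport kinesins 5 of 14 tested rose and 0 fell, beside 13.3% and 15.6% of all genes, and 11 of the 14 had log2 fold changes above 0. The 5 were KIF5C, KIF16B, KIF3A, KIF21A and KIF5B, and the median of the 14 was 0.35. The count of rises was 2 without control replicate 2, without PARK2 replicate 2 and without PARK2 replicate 3. Whether the transport and mitotic classes differ was not tested. The values as deposited gave the transport class no fall, while quantile normalization, median centring and trimmed mean scaling each gave 6 rises and 1 fall. The fall was KIF1C, and the rises then held KIF3B and KIF13B but not KIF5B.

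Conventional kinesin (kinesin-1) has a heavy chain from KIF5A, KIF5B or KIF5C. KIF5C, which is enriched in neurons, read 193, 165 and 184 in control and 298, 343 and 348 in PARK2 arrays, with the groups well apart (log2 fold change 0.82, SE 0.16, adjusted p 3.84e-05). A second KIF5C probe set rose by a similar 0.77 (adjusted p 0.0233 over all probe sets), and the dimmest was at 0.20 (0.597). The call was lost under 2 of 18 alternatives. These were the correction for neighbouring genes described below and the fit without _x_at and _s_at probe sets. The latter left only the dimmest probe set (0.20, adjusted p 0.587). KIF5B, the form of most tissues, read 1334, 1785 and 1775 in control and 1610, 2337 and 2515 in PARK2 arrays. Its groups overlapped, because PARK2 replicate 1 lay below control replicates 2 and 3, and the log2 fold change was 0.38 (SE 0.14, adjusted p 0.0323). The call was lost without control replicate 1 (adjusted p 0.238), PARK2 replicate 2 (0.204) or PARK2 replicate 3 (0.303), and under 11 of 18 alternatives in all, among them no filter (0.190) and each of the 3 rescalings above. KIF5A, the remaining heavy chain, was dim, at 11.1 ± 7.42 in control and 18.5 ± 12.7 in PARK2 arrays, and did not pass (0.32, adjusted p 0.401).

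Kinesin-2 pairs KIF3A with KIF3B or KIF3C, together with the subunit KIFAP3, and carries cargo along cilia and axons. KIF3A read 391, 296 and 293 in control and 498, 479 and 475 in PARK2 arrays, without overlap (log2 fold change 0.56, SE 0.15, adjusted p 0.00373), and the call was lost narrowly without control replicate 2 (adjusted p 0.0523). A second, dimmer KIF3A probe set stood at 0.31 and did not pass (adjusted p 0.308 over all probe sets). KIFAP3 rose as well (0.55, SE 0.16, adjusted p 0.00566), from 864, 426 and 525 to 880.3, 830.3 and 864, though control replicate 1 was as high as the PARK2 arrays and the call was lost without control replicate 2 (0.195). The partner KIF3B was at 0.30 (0.0018 to 0.60, adjusted p 0.131), and passed without control replicate 1 (0.46, adjusted p 0.00554) but was at 0.21 without control replicate 3 (0.337). KIF3C, the alternative partner, was at -0.31 (-0.66 to 0.04).

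KIF16B, which moves early endosomes, read 67.9, 49.6 and 39.96 in control and 80.0, 85.3 and 88.4 in PARK2 arrays, without overlap. Its log2 fold change was 0.57 (SE 0.19, adjusted p 0.0155), and its other probe set rose by 0.94 (adjusted p 0.00726 over all probe sets). KIF21A, which limits microtubule growth at the cell cortex, read 346, 269 and 286 in control and 406, 417 and 453 in PARK2 arrays (0.49, SE 0.16, adjusted p 0.0128). Both were close to the threshold. The call of KIF16B was lost without control replicate 2 (adjusted p 0.0591) or 3 (0.0736) and without PARK2 replicate 2 (0.0578) or 3 (0.066). It was also lost with no filter (0.0874). That of KIF21A was lost without control replicate 2 (0.125) and without PARK2 replicate 2 (0.058) or 3 (0.0922). With the mean of probe sets KIF21A was at 0.34 (0.103). Its second, dimmer probe set stood at 0.20 (adjusted p 0.601 over all probe sets).

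The remaining 9 transport kinesins ran from -0.43 to 0.38. KIFC3 (0.38, adjusted p 0.118) and KIF13B (0.37, adjusted p 0.107) had groups that did not overlap, and so did KIF1C (-0.37, adjusted p 0.0816) and KIFC2 (-0.43, adjusted p 0.0798). KIFC3 passed without control replicate 3 (0.47, adjusted p 0.0484) and was at 0.26 without PARK2 replicate 3 (0.483). KIF13B passed without control replicate 1 (0.48, 0.0244) and was at 0.26 without control replicate 2 (0.454). KIF1C passed without control replicate 3 (-0.42, 0.0387) and was at -0.28 without control replicate 1 (0.0882). KIFC2 passed without control replicate 3 (-0.49, 0.0450), and without control replicate 1, where its other probe set was the brightest, it was at -0.015 (0.959). Counted over the whole family, the groups did not overlap for 7 of 12 mitotic, 8 of 14 transport and 2 of 7 other kinesins, beside 39.5% of all genes tested.

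**Figure D3:**
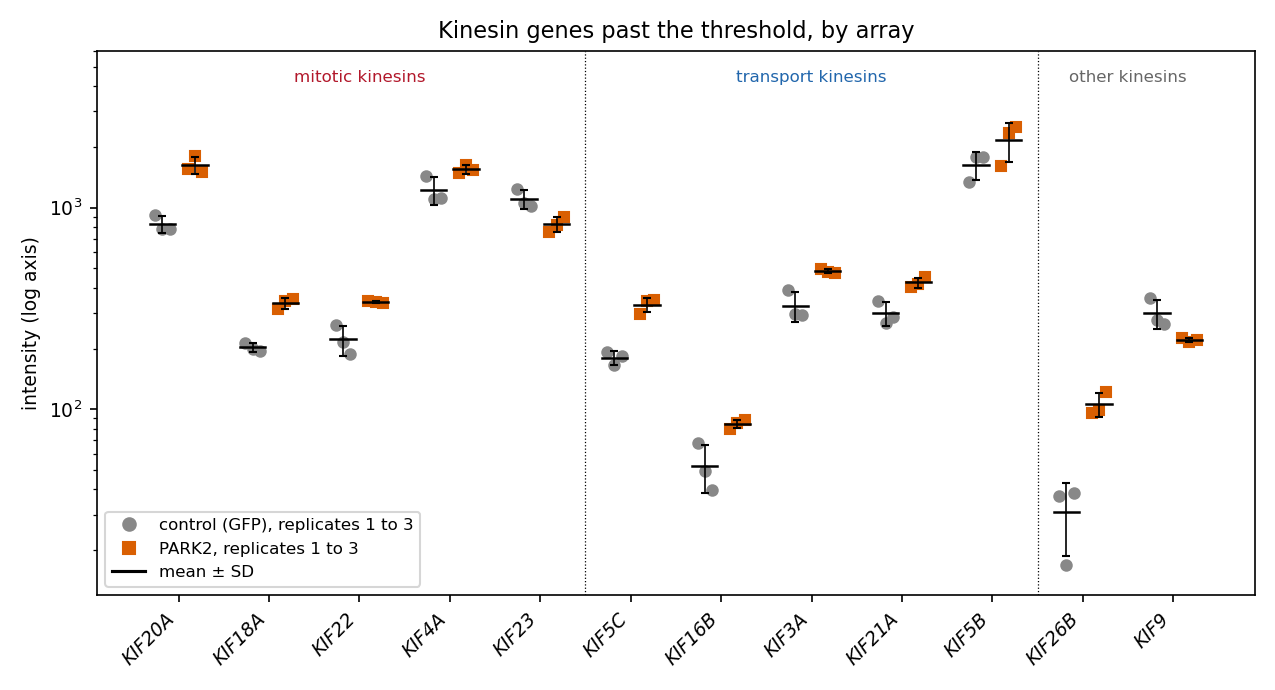
Intensity (log axis) on each array for the 12 kinesin genes past the threshold, control in grey circles and PARK2 in orange squares, with the mean ± SD of 3 arrays. Controls and PARK2 arrays overlap for KIF5B alone among the 12, and KIF26B shows the widest gap.

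KIF26B had the largest change of the family. It belongs to an unusual kinesin group without ATPase activity and acts in cell adhesion and Wnt5a signalling. It read 37.0, 16.8 and 38.4 in control and 96.1, 99.0 and 122 in PARK2 arrays, a linear fold of 3.44. The log2 fold change was 1.41 (SE 0.20, adjusted p 2.84e-08). It was 1.83 when a pseudocount of 1 replaced 16, and 0.85 with 64. Its second probe set rose by 0.77 (adjusted p 0.0277 over all probe sets), and the call held under all alternatives run.

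KIF9, a motor of motile cilia, fell at the edge of the threshold. It read 356, 278 and 265 in control and 226, 216 and 221 in PARK2 arrays (-0.41, SE 0.16, adjusted p 0.0490). Its brightest probe set is of the kind marked _x_at, which may read other transcripts too, and its other 3 probe sets past the filter stood at -0.48, 0.03 and -0.19 without passing. The call was lost under 12 of 18 alternatives, among them each left-out array but control replicate 3 (adjusted p 0.0778 without control replicate 1, 0.0991 without control replicate 2, and 0.104, 0.174 and 0.138 without PARK2 replicates 1, 2 and 3). Of the other 5 tested, KIF2A, a microtubule depolymerase of spindle poles and neurons, was at 0.09 (-0.19 to 0.37). With KIF2A counted as mitotic, that class had 4 rises, 1 fall and a median of 0.29. KIF7, a ciliary regulator of Hedgehog signalling, was at -0.32 (-0.74 to 0.10), with control arrays spread from 35.1 to 106, and passed without control replicate 3 (-0.68, adjusted p 0.00436) but was at -0.05 without control replicate 2 (0.932). KIF6, KIF12 and KIF25 lay between -0.08 and 0.15. Of the antisense genes 3 of 4 were tested and 0 passed, with adjusted p of 0.722 for KIF9-AS1, 0.533 for KIF25-AS1 and 0.307 for KIF23-AS1.

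Of the 33 tested kinesins 21 had at least 2 probe sets past the filter, and in 16 of these all probe sets had the same sign. The exceptions were KIF13A, KIF1B, KIF20B, KIF9 and KIFC3, and for 0 genes did called probe sets oppose each other. In 3 transport kinesins a dimmer probe set was lower in PARK2 cells although the brightest did not pass. For KIF1C, a motor of integrin and vesicle traffic, it went from 175 ± 36.1 to 90.8 ± 2.61 (-0.82, adjusted p 0.00261 over all probe sets). KIF1B, a mitochondrial and vesicle motor, had a probe set that read 439, 340.4 and 291 in control and 243, 206 and 260.1 in PARK2 arrays (-0.55, adjusted p 0.0291), while its brightest read 956, 728 and 746 against 812, 843 and 943 (0.10). KIF13A, an endosome motor, had a dim one that read 49.1, 58.2 and 37.7 in control and 24.1, 21.1 and 21.9 in PARK2 arrays (-0.73, adjusted p 0.0120). Its brightest read 1286, 1171 and 1137 against 1179, 1398 and 1358 (0.13), with overlapping groups. KIF20B read 628, 488 and 551 against 407, 458 and 488.04 on its brightest probe set, and its other one, near the filter, was at 0.03. KIFC3 read 65.1, 55.5 and 76.2 against 80.7, 81.1 and 109.7 on its brightest, and -0.0092 was the value of its dim one. Probe sets of a gene can read different transcript forms, which was not tested.

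**Figure D4:**
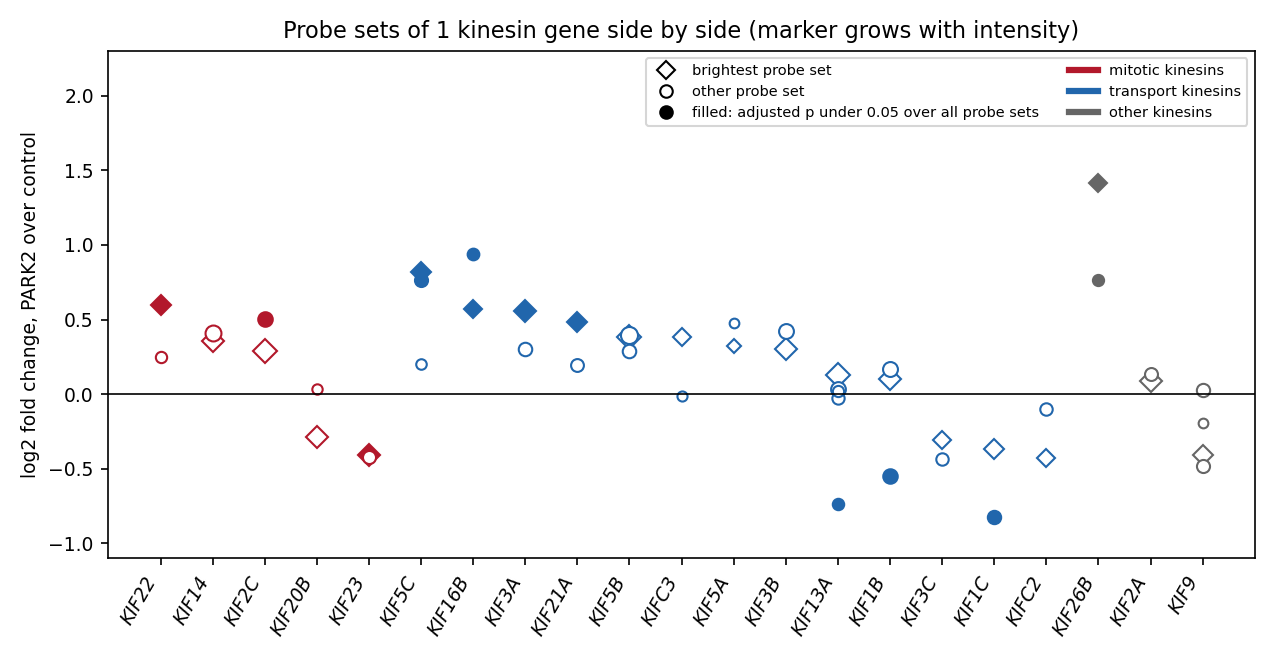
Log2 fold change (y axis) of each probe set past the filter for the 21 kinesin genes with more than 1, diamonds for the brightest, marker size growing with intensity, filled where adjusted p over all 26603 probe sets is under 0.05. Filled points of KIF13A, KIF1B and KIF1C lie well under their open diamonds.

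Of 23 genes tested that work with the mitotic kinesins 9 rose, 1 fell and 13 did not pass, with a median of 0.24. Of all genes 13.3% were higher and 15.6% lower. CENPE among them is itself a mitotic kinesin, counted here because its symbol does not start with KIF. ANLN (0.76), a scaffold of the cleavage furrow, the kinetochore motor CENPE (0.66, from 398 ± 31.4 to 641 ± 78.8), the checkpoint kinase BUB1B (0.63) and ECT2 (0.49), which activates RhoA at the midzone, rose. AURKB (-0.42, adjusted p 0.0336), the kinase that KIF20A carries and a gene chosen after its values were seen, fell, a call that was lost (adjusted p 0.0638 to 0.142) without any 1 array other than control replicate 3. Summed over the partners, intensity was 36407 to 44309 with GFP against 45801 to 47484 with PARK2. For the mitotic kinesins the sum was 8195 to 10063 against 9773 to 10577, and those ranges overlap.

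Of 18 proliferation markers outside the kinesins 1 rose, 2 fell and 15 did not pass, beside the same shares of all genes, with a median of -0.11 and sums of 30197 to 37652 with GFP against 31110 to 32401 with PARK2. MKI67, a mark of cycling cells, rose (0.41, adjusted p 0.0226, and 0.178 without control replicate 2, 0.0661 without PARK2 replicate 1, 0.163 without PARK2 replicate 2 and 0.0571 without PARK2 replicate 3). TOP2A, which peaks in G2, was at 0.01 (adjusted p 0.958), and the replication genes MCM4 (-0.78) and CCNE2 (-0.39, adjusted p 0.0276) fell. The CCNE2 call was lost without control replicate 2 (0.133) and without PARK2 replicate 1 (0.108), 2 (0.139) or 3 (0.071), and CCNE2 was at 0.15 with the neighbours' median taken off. In bulk RNA, more cells in mitosis and more message per dividing cell cannot be told apart.

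Of 19 light chains and cargo adaptors tested 3 rose and 2 fell, with a median of -0.14, a share called close to the 28.8% of all genes. KIFAP3, KLC1 (0.52), a light chain of kinesin-1, and TRAK2 (0.55), which ties kinesin-1 to mitochondria, rose, while its relative TRAK1 (-0.78) and the KIF5 adaptor FEZ2 (-0.64) fell. The KLC1 call was lost with the mean of probe sets (0.27, adjusted p 0.207) and without _x_at and _s_at probe sets (0.13, 0.646). Of 21 dynein and dynactin genes, which serve traffic in the opposite direction, 4 rose and 2 fell (median 0.06), again close to 28.8%. NDE1 (0.42) and DCTN6 (0.38) rose, and DYNLL2 (-0.42) and DYNC1LI1 (-0.41) fell, but their calls were lost under 8, 9, 6 and 8 alternatives. Among left-out arrays the losses were without control replicate 2 or 3 or PARK2 replicate 2 or 3 for NDE1 (adjusted p 0.095 to 0.165), and without control replicate 2 or any PARK2 replicate for DCTN6 (0.0846 to 0.312). They were without control replicate 2 or PARK2 replicate 1 or 2 for DYNLL2 (0.0507 to 0.234), and without control replicate 1 or 2 or PARK2 replicate 1 or 2 for DYNC1LI1 (0.0779 to 0.198). With the mean of probe sets NDE1 was at 0.09 (0.716).

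For each kinesin the 20 nearest tested genes along its chromosome were taken. Across the 33 kinesins the log2 fold change and the median of the neighbours had a Pearson r of 0.70 and a Spearman rho of 0.68, over genes measured on the same 6 arrays, of which 21 had not passed. The same values over 13701 tested genes with neighbours were 0.40 and 0.44, and the difference was not tested. Around KIF23, 19 of 20 neighbours were below 0 and 11 were called lower (median -0.54). Around KIF5C, 17 of 20 were above 0 and 13 were called higher (median 0.60). Over all genes tested 13.3% were called higher and 15.6% lower. Around KIF1C (-0.50), KIFC2 (-0.42), KIF15 (-0.38), KIF11 (-0.29), KIF7 (-0.62), KIF3C (-0.28) and KIF20B (-0.22) the neighbours were also low. They were high around KIF14 (0.36) and KIF18A (0.22). The neighbours' median lay beyond 0.2 on either side for 11 of 33 kinesins, a share close to that of all genes (4864 of 13701). KIF20A (0.07), KIF22 (-0.04), KIF26B (0.07), KIF3A (0.11) and KIF21A (0.02) changed among neighbours whose medians lay near 0. What moves the neighbours was not tested.

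With the neighbours' median taken off on each array, 6 of 12 mitotic kinesins were higher and 0 lower, and 11 of the 12 lay above 0. All genes tested then gave 14.2% higher and 14.2% lower. Of the 14 transport kinesins 4 were then higher and 0 lower, and 11 lay above 0. KIF23 turned from -0.41 to 0.17 (adjusted p 0.151), and KIF5C went from 0.82 to 0.11 (0.462). KIF5B was at 0.29 (0.185) and KIF9 at -0.21 (0.134), while KIF2C (0.35, adjusted p 0.0131), KIF18B (0.42, 0.00474) and KIFC3 (0.53, 0.0299) became called, as did the antisense gene KIF23-AS1 (0.93, 0.0159). KIF23-AS1 was dim, at 10.4, 12.7 and 10.0 in control and 12.1, 37.1 and 11.9 in PARK2 arrays. Its value before the correction was 0.36, and the median of its neighbours was -0.51. KIF20A (0.90), KIF22 (0.66), KIF18A (0.49) and KIF26B (1.29) kept their calls. Of the partners, ECT2 went to 0.01 (0.919), AURKB to -0.03 (0.866), and PRC1, chosen after its values were seen, from -0.30 to 0.40 (0.00567).

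**Figure D5:**
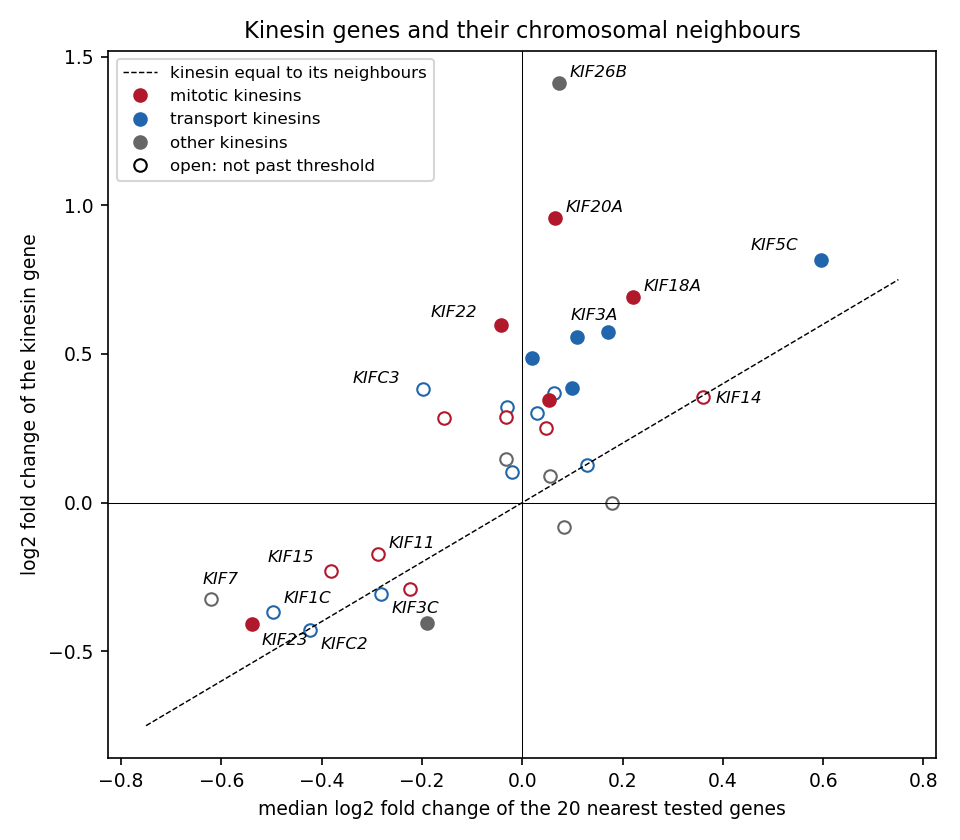
Log2 fold change of each of the 33 tested kinesin genes (y axis) against the median of its 20 nearest tested genes (x axis), filled where adjusted p is under 0.05. KIF14 lies on the dashed line of equality with KIF23 close to it, and KIF26B, KIF20A and KIF22 lie well above it.

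The median intensity of an array was between 16.2 and 19.3, and its 2% trimmed mean between 137 and 168, highest in control replicate 1. On that array the median mitotic kinesin stood 0.18 and the median transport kinesin 0.23 log2 units above the control mean, against -0.07 to -0.11 for the other controls and 0.22 to 0.42 in PARK2 arrays. Of 12 glial and glioma markers 9 passed the filter, and OLIG2, AQP4 and CHI3L1 did not. Of the 9, 2 rose and 2 fell, beside 13.3% higher and 15.6% lower over all genes. The calcium-binding protein gene S100B (-1.39, adjusted p 9.3e-10) and the glutamate transporter gene SLC1A3 (-0.72, adjusted p 0.000221) fell. GFAP (0.53, adjusted p 0.0107) and SOX2 (0.30, adjusted p 0.0378) rose. The GFAP call was lost without control replicate 2 (0.123) or PARK2 replicate 2 (0.086), and that of SOX2 without any 1 array other than control replicate 1 (0.0701 to 0.208). With the mean of probe sets GFAP was at -0.027, and with the neighbours' median taken off SOX2 was at -0.18. VIM, CD44, NES, FABP7 (-0.27, adjusted p 0.103) and ALDH1L1 (0.01, adjusted p 0.978) also passed the filter and were not called. Of the markers of other cell types, 5 of 6 for microglia and 4 of 6 for endothelium were under the filter. The microglial sum was 51.1 to 57.3 with GFP against 40.6 to 64.9 with PARK2, and the endothelial sum 121 to 136 against 121 to 154. Neuronal markers summed to 4798 to 5497 with GFP against 8755 to 9329 with PARK2, a linear sum that its brightest members carry. Group means of NEFL went from 91.3 to 2982 and of TUBB3 from 3827 to 5330, while GAP43 went from 673 to 42.2. Of the 12 neuronal markers, 6 (RBFOX3, STMN2, SYP, DCX, NEFM and ELAVL4) were under the filter. Of the 6 tested, 4 rose (NEFL, SYT1, SNAP25 and TUBB3) and 1 fell (GAP43), beside the same shares of all genes. MAP2 was at -0.26 and did not pass. SNAP25 was not called when PARK2 replicate 3 was left out (0.50, adjusted p 0.156) or at a pseudocount of 1 (0.0563), settings where another SNAP25 probe set was the brightest. The part of these markers in the kinesin values was not tested.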

How the data were processed

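The deposited table holds a linear intensity for each of 54675 probe sets on 6 arrays. Per the submitters' processing notes the tools were GCOS and MAS5, whose versions are not given in the sources used here. How the authors scaled the deposited intensities is unknown. The platform annotation from GEO paired probe sets with genes. Control probe sets, those with several genes or none, and dim ones (mean log2(intensity + 16) below percentile 40, controls aside) were left out. The brightest probe set stood for each gene, which left 13720 genes. PARK2 and control arrays were compared by limma version 3.58.1 (R 4.3.3), using an intensity trend, and Benjamini-Hochberg adjustment at 0.05. Words of change refer to genes past that threshold. The fit was checked on simulated data with far fewer changed genes than were called here. It recovered 59.7% of changes of 1.5-fold, 92.5% of 2-fold and 100% of 4-fold, so small changes can be missed. The 6 arrays limit the precision. The transgene itself was not analysed here.

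Members, classes and lists were chosen with earlier results of these data known. Named genes were all kinesins, up to 4 genes with the largest change past the threshold in each other list, and CENPE, KIFAP3, MKI67 and TOP2A. RACGAP1, AURKB, PRC1, KLC1, TUBB3, MAP2 and the markers that were not called were named after their values were seen. Full values are given for kinesins past the threshold and for those whose probe sets disagree. RefSeq gene order (GRCh38.p14) gave the neighbours. Alternatives covered filter, pseudocount, scaling, variance model, array weights, probe set, replicate block, neighbours and left-out arrays, with the brightest probe set chosen anew in each.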

Additional observations from a re-analysis of the deposited data

How the results depend on the processing

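KIF20A, KIF18A, KIF22 and KIF26B kept their calls under each alternative that gave them a value. Leaving out 1 array at a time gave 1208 (without PARK2 replicate 3) to 2800 (without control replicate 1) higher genes overall. Mitotic kinesins then had 3 to 6 rises, 0 to 1 falls and medians of 0.25 to 0.36. Transport kinesins had 2 to 6 rises and 0 to 2 falls, and other kinesins 0 to 2 falls. Mitotic rises and falls were 7 and 2 after quantile normalization, 6 and 2 after trimmed mean scaling, 7 and 1 with array weights (median 0.34), 1 and 0 without _x_at and _s_at probe sets, 3 and 0 without the intensity trend, and 6 and 0 with the neighbour correction (median 0.23). KIF18A and KIF22 had no value without _x_at and _s_at probe sets. Transport rises and falls were 3 and 0 with no filter, 3 and 1 with the mean of probe sets, 8 and 1 with array weights, and 6 and 1 under quantile normalization, median centring and trimmed mean scaling. The transport median was 0.21 with the neighbour correction. Falls of other kinesins were 2 with array weights and 0 with no filter, pseudocount 1, no intensity trend, the mean of probe sets, no _x_at or _s_at probe sets and the neighbour correction. Array weights gave 3075 higher genes overall. The neighbour correction reversed KIF23 (0.17), PRC1 (0.40), CCNE2 (0.15) and SOX2 (-0.18), and the mean of probe sets reversed GFAP (-0.027). The cause was not tested.

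With the replicate block, 1556 genes were higher and 1897 lower, mitotic kinesins had 3 rises and 0 falls, transport kinesins 5 and 0, and other kinesins 0 falls. Deviations of same-numbered arrays correlated at 0.17, 0.05 and 0.06 (other pairs -0.12 to 0.07), and 4 of 6 arrays correlated best with their own number. What same-numbered arrays share beyond that number is not stated in the labels and was not tested.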
